A study of Panagrellus redivivus with 189 samples.

Results

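Of the 1566 features used here, 60 were already present at the 1-3 cell stages of the nematode *Panagrellus redivivus*, stood at least 4-fold higher at the 6-10 cell stages and stayed near that level in gastrulae. The 60 features were chosen on the counts of these embryos. A feature entered with at least 2 counts summed over the 5 embryos of 1-3 cells and at least 200 CPM (counts scaled so that each library or embryo has the same total) in the summed 6-10 cell libraries of the higher sample numbers. That 6-10 cell level had to be at least 4 times the 1-3 cell level, and the gastrula level had to lie within 3-fold of it. The contrasts between 1-3 cell, 6-10 cell and gastrula libraries are therefore a description of the choice and were not tested. The data that took no part in the choice are 57 libraries of 5 embryos, namely 8-cell embryo 1, 12-cell embryo 1, the 14-cell embryo, 12-cell embryo 2 and the 20-cell embryo.

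*P. redivivus* is a free-living nematode, and the series follows its embryogenesis cell by cell. Egg shells were removed, the blastomeres of an embryo were parted by hand, and the RNA of each was amplified with CEL-Seq2, a barcoded method that reads the 3′ ends of polyadenylated RNA. No strain, treatment or culture is named, and all embryos share 1 protocol. The lower sample numbers hold 39 libraries, from 1-cell embryos 1 and 2 (1 library each), a 2-cell pair with named cells, a pair of numbered 2-cell libraries taken here as 1 embryo, a 3-cell embryo, 8-cell embryo 1 (7 libraries), 12-cell embryo 1 (10) and the 14-cell embryo (13). The higher sample numbers hold 150 libraries, from a 6-cell embryo (4 libraries), a 7-cell embryo (7), 8-cell embryos 2 to 5 (3 to 7), a 9-cell embryo (9), a 10-cell embryo (10), 12-cell embryo 2 (10), a 20-cell embryo (17), an early gastrula (33) and a late gastrula (40). Several embryos have fewer libraries than cells, most stages have 1 embryo, and the lower series holds all 1-3 cell embryos while the higher series holds all 6-10 cell embryos used for the choice.

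In nematodes, as in other animals, the first cleavages run largely on RNA that the mother laid down in the egg. The embryo's own transcription then begins, maternal transcripts are degraded, and some genes contribute RNA from both sources. Counts of one RNA pool do not tell RNA left by the mother from RNA made by the embryo. The rows of the deposited table carry no gene identifier, so each feature goes by its row number, and no function or sequence is given for any of them.

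A set of 6 rows that dominate the lower-series libraries was left out of all totals. These rows held a median of 72.3% of a lower-series library (23.1% to 99.6%) and 5.09% of a higher-series library (1.43% to 33.2%). The largest count in the lower series was 1024, reached 4 times, and 774 outside these rows, against 2780 in the higher series. Whether counts had an upper limit in the lower series is not stated in the sources used here, and the part of such a limit in the shares of these rows was not tested. Without them, libraries of the lower series held 14 to 14376 counts (median 1176) and those of the higher series 207 to 44125 (median 6650). CPM is computed over the remaining rows, so it is a share of the RNA recovered from an embryo. Fewer cells that hold an RNA and less of it per cell cannot be told apart in sums over an embryo. Embryo 1 of the 8-cell stage was unlike the others of that stage, as set out below, and the test that rests on it has no second embryo of that stage in the same series.

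The choice itself gave the following values. The 60 features had 2 to 253 counts over the 5 embryos of 1-3 cells, with a median of 7. Their ratio of 6-10 cell to 1-3 cell CPM had a median of 10.3 and ran from 4.13 to 174.5. The members closest to the 4-fold limit were rows 824, 589 and 600, at 4.13-fold, 4.19-fold and 4.31-fold. The rows closest to it on the other side were rows 1002 and 469, at 3.97-fold and 3.81-fold, and the next had 3.78-fold. The median ratio was 0.571 over all rows that met every condition except the 4-fold one, called the retained rows below.

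In the embryos used for the choice, the 60 features together held a small share of the RNA of 1-3 cell embryos. The 1-cell embryos gave 3.04% and 2.20%, the 2-cell pairs 2.74% and 1.78%, and the 3-cell embryo 2.12%, a mean of 2.38% ± 0.505 (SD, n = 5). The 8 embryos of 6-10 cells in the higher series ranged from 15.1% to 25.4%, with a median of 21.0%, and the early and late gastrulae gave 21.8% and 18.9%. These groups do not overlap, which the choice of features brings with it.

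The embryos that took no part in the choice fell on both sides of that gap. In 8-cell embryo 1 the 60 features held 2.46% of the counts (95% Wilson interval 2.19% to 2.76%), inside the range of the 1-3 cell embryos. In 12-cell embryo 1 they held 20.8% (20.0% to 21.7%) and in the 14-cell embryo 23.7% (22.9% to 24.5%). Both of these embryos are in the lower series, with the 1-3 cell embryos and 8-cell embryo 1, and both lay within the range of the higher-series embryos of 6-10 cells. The higher-series 12-cell embryo 2 gave 22.2% (21.9% to 22.5%) and the 20-cell embryo 22.4% (22.2% to 22.7%). The 4 other embryos labelled 8-cell, all in the higher series, ranged from 15.1% to 24.7%, so the values of 8-cell embryo 1 go against its label as those embryos show it. Whether the label, the series or the embryo accounts for this cannot be told apart. The held-out values thus separated 8-cell embryo 1 from the 12-cell, 14-cell and 20-cell embryos and did not separate the series at 12 cells and later. Intervals cover counting error only.

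**Figure D1:**
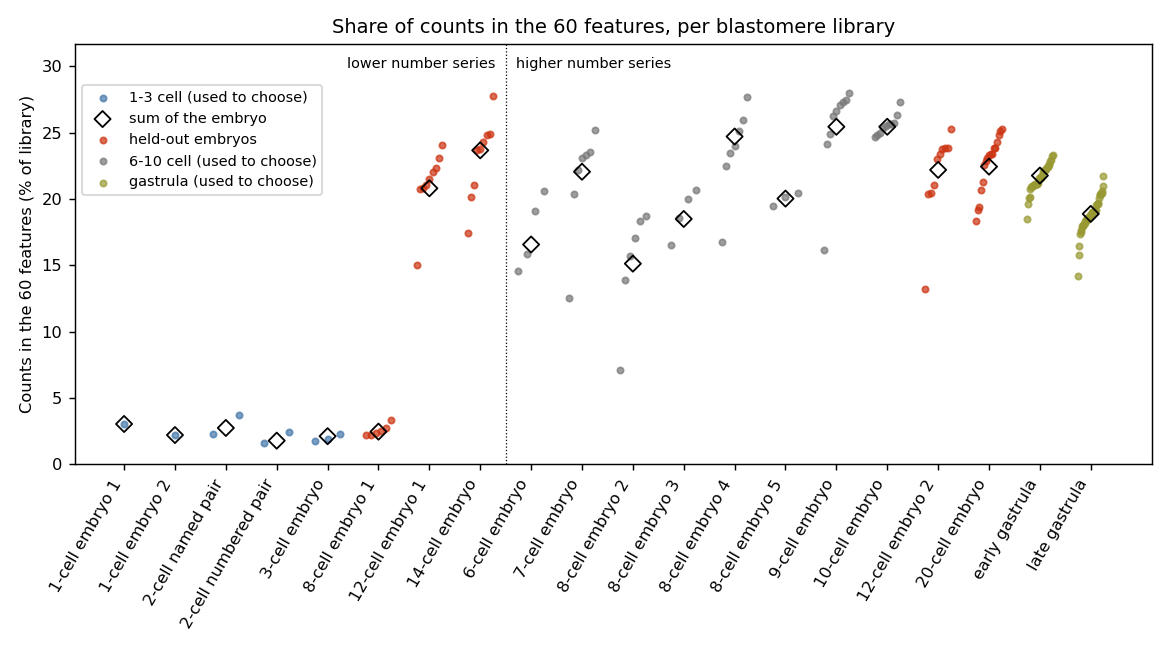
Share of counts in the 60 features (percent of a library without the 6 dominant rows, vertical axis) in each blastomere library with at least 200 counts, by embryo. Small points are libraries, open diamonds the sum of the embryo, and the dotted line parts the lower from the higher sample numbers. The libraries of 8-cell embryo 1 lie between 2.17% and 3.35%, while those of 12-cell embryo 1 and the 14-cell embryo lie between 15.1% and 27.8%.

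The low share in 8-cell embryo 1 was found in every library with at least 200 counts, 6 of 7, which ranged from 2.17% to 3.35%. The 9 such libraries of 12-cell embryo 1 ranged from 15.1% to 24.1%, and the 9 of the 14-cell embryo from 17.4% to 27.8%. No library of 8-cell embryo 1 overlapped with these. The number of the 60 features with a count showed the same split at equal depth. At 1000 counts per library the expected number was 9.41 (median of 4 libraries) in 8-cell embryo 1, 41.6 (median of 4) in 12-cell embryo 1 and 41.4 (median of 5) in the 14-cell embryo, leaving out 3, 6 and 8 shallower libraries. Without this thinning the medians were 18, 43 and 46. In the 1-3 cell embryos the thinned medians were 10.7 to 17.5, and in the higher series 40.0 to 46.6.

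Set against the 1-3 cell embryos, the held-out 12-cell embryo 1 and 14-cell embryo were higher by a median of 9.41-fold over the 60 features (2.13-fold to 216.7-fold). In these embryos 51 of the 60 features stood at least 4-fold above the 1-3 cell level, where 21.3% of the 403 rows with at least 2 counts at 1-3 cells did. The retained rows had a median ratio of 0.494, and 4 of them reached 4-fold. With the 6 dominant rows kept in the totals the median ratio of the 60 features was 3.50; the part of any limit on the counts of those rows in this value was not tested. The 1-3 cell side of this ratio entered the choice, so the ratio is given with no test. In 49 of the 60 features both embryos lay above all 5 embryos of 1-3 cells, as did 24.1% of the 403 rows.

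In 8-cell embryo 1 the same ratio to the 1-3 cell level had a median of 0.435 over the 60 features. The median was 0.732 over the 403 rows and 0.763 over the retained rows. None of the 60 features reached 4-fold there, against 4.47% of the 403 rows. Of the 60, 19 were above the 1-3 cell level at all, a slightly smaller share than among the 403 rows. The embryo lay above all 5 embryos of 1-3 cells in 8 features, and 18.1% of the 403 rows did so. These were rows 459, 498, 600, 674, 719, 895, 1244 and 1526. Row 459 had 11439 CPM there, and the other 7 rested on 2 to 5 counts each. In the remaining 52 features 8-cell embryo 1 lay within or below the 1-3 cell range.

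**Figure D2:**
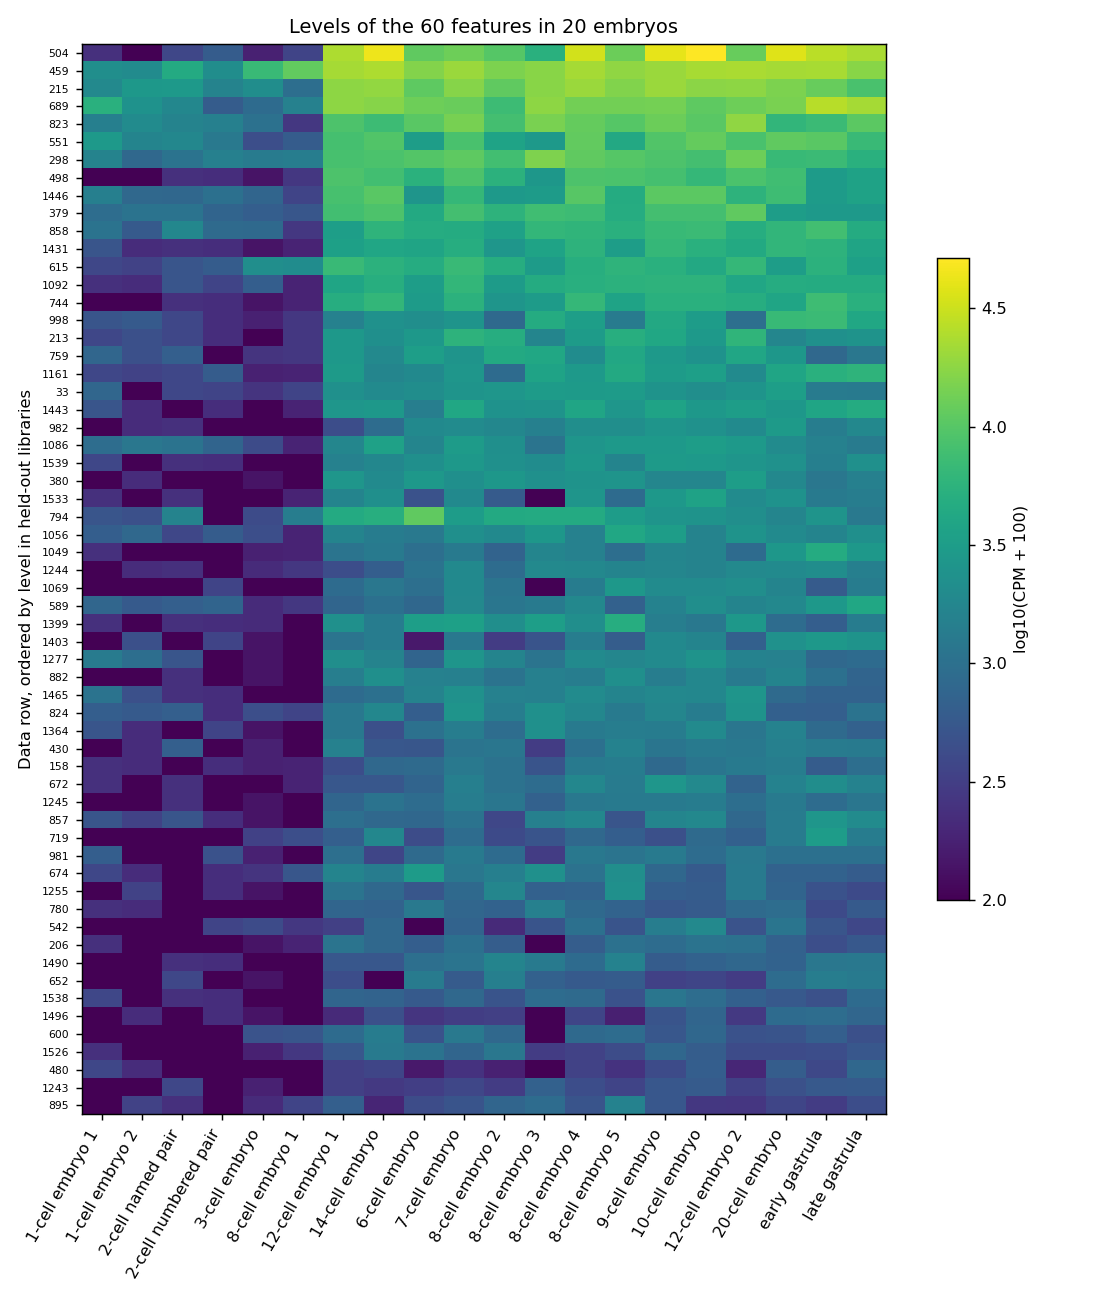
Levels of the 60 features (rows, ordered by their level in the held-out libraries) in the 20 embryos (columns), as log10(CPM + 100). The columns from 1-cell embryo 1 to 8-cell embryo 1 are dark in most rows, and the columns from 12-cell embryo 1 onward are bright. Row 459 is brighter in 8-cell embryo 1 (11439 CPM) than in any 1-3 cell embryo.

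The 10 most abundant members in the held-out libraries held 59.3% of the counts of all 60 there. Row 504 was the most abundant and had the steepest difference between early and late embryos. Its level at 1-3 cells was 138.1 and 0 CPM in the 1-cell embryos, 281.0 and 513 CPM in the 2-cell pairs and 78.2 CPM in the 3-cell embryo, from 9 counts in all. It was 260 CPM (3 counts) in 8-cell embryo 1, 24051 CPM in 12-cell embryo 1 and 43553 CPM at 14 cells. In the higher series it ran from 5208 to 51497 CPM over the 8 embryos of 6-10 cells (median 12784), with 12042 CPM in 12-cell embryo 2, 38031 CPM in the 20-cell embryo, 26740 CPM in the early and 23330 CPM in the late gastrula. Every embryo other than those of 1-3 cells and 8-cell embryo 1 lay above all 6 of these, and the later embryos differed among themselves by more than for the other 9 features.

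Row 459 had the most counts of the 60 over the summed 1-3 cell libraries, most of them from the 3-cell embryo, and the steadiest level later. Row 689 was above it in both 1-cell embryos, row 551 in 1-cell embryo 1 and row 215 in 1-cell embryo 2. It stood at 2071 and 1938 CPM in the 1-cell embryos, 4496 and 2051 CPM in the 2-cell pairs and 6804 CPM in the 3-cell embryo. The level was 11439 CPM in 8-cell embryo 1, 22269 CPM in 12-cell embryo 1 and 23986 CPM at 14 cells. In this row, 8-cell embryo 1 lay between the 1-3 cell and the later embryos and overlapped with neither. The higher-series embryos of 6-10 cells had 14867 to 22704 CPM (median 19102), 12-cell embryo 2 had 23223 CPM, the 20-cell embryo 22269 CPM, and the early and late gastrulae 22956 and 17004 CPM. Over the 14 embryos other than those of 1-3 cells and 8-cell embryo 1, its coefficient of variation was 15.1%, the lowest of the 60, and the highest was 82.6% in row 719.

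Rows 215, 689 and 823 were the next in abundance. Row 215 had 1795 and 2665 CPM in the 1-cell embryos, 2810 and 1538 CPM in the 2-cell pairs and 2033 CPM in the 3-cell embryo, and then 867 CPM in 8-cell embryo 1, 17704 CPM in 12-cell embryo 1 and 18575 CPM at 14 cells. Its level in the higher series was 10872 to 20208 CPM at 6-10 cells (median 16722), 17611 CPM in 12-cell embryo 2, 14872 CPM in the 20-cell embryo, and 12010 and 8526 CPM in the gastrulae. Here 8-cell embryo 1 lay below every 1-3 cell embryo, and all later embryos lay above every 1-3 cell embryo.

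Row 689 was uneven at the earliest stages, with 5109 and 2302 CPM in the 1-cell embryos, 1686 and 513 CPM in the 2-cell pairs and 782 CPM in the 3-cell embryo. It had 1473 CPM in 8-cell embryo 1, 17704 CPM in 12-cell embryo 1 and 16592 CPM at 14 cells. In the higher series it had 7152 to 17628 CPM at 6-10 cells (median 13187), 13043 CPM in 12-cell embryo 2, 14693 CPM in the 20-cell embryo, and 26116 and 21917 CPM in the early and late gastrulae. Both gastrulae lay above all other embryos in this row.

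Row 823 had 1381 and 1938 CPM in the 1-cell embryos, 1546 and 1410 CPM in the 2-cell pairs and 938 CPM in the 3-cell embryo. It had 173.3 CPM (2 counts) in 8-cell embryo 1, the lowest of the 20 embryos, and 9019 and 7124 CPM in 12-cell embryo 1 and the 14-cell embryo. In the higher series it had 7840 to 14423 CPM at 6-10 cells (median 11090), 18261 CPM in 12-cell embryo 2, 6068 CPM in the 20-cell embryo, and 6938 and 10654 CPM in the gastrulae. The 12-cell embryo 2 had the highest and the 20-cell embryo the lowest value among embryos later than 8-cell embryo 1.

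**Figure D3:**
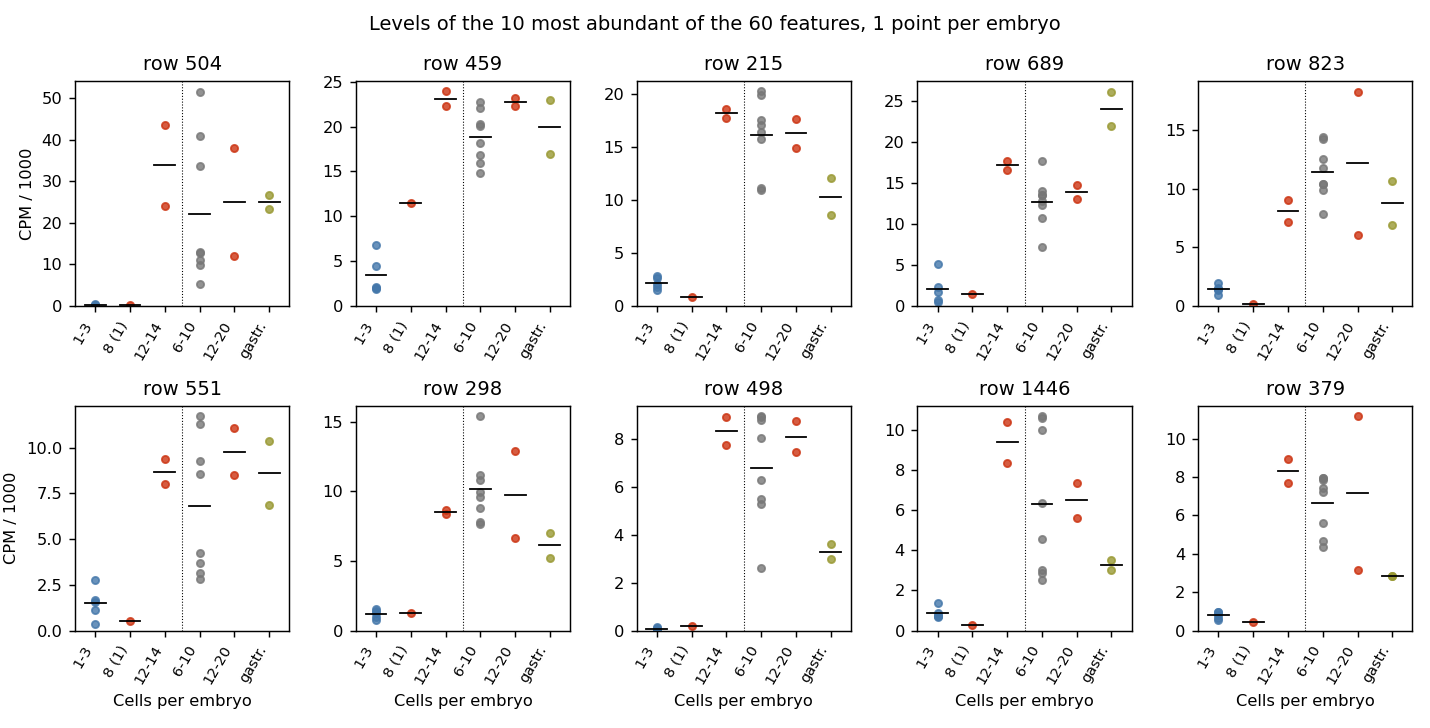
CPM divided by 1000 (vertical axes) of the 10 most abundant of the 60 features, 1 point per embryo and a bar at the mean of each group. Groups along the horizontal axis are 1-3 cell embryos, 8-cell embryo 1, 12-cell embryo 1 with the 14-cell embryo, then, right of the dotted line, the higher-series 6-10 cell, 12-20 cell and gastrula embryos. In row 459 the point for 8-cell embryo 1 (11439 CPM) lies between the early and later groups, and in row 215 (867 CPM) it lies below the early group.

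Row 498 was close to absent early, with 0 counts in both 1-cell embryos and 1 count in each of the 2-cell pairs and the 3-cell embryo. It had 173.3 CPM (2 counts) in 8-cell embryo 1, 8908 CPM in 12-cell embryo 1 and 7755 CPM at 14 cells, and then 8752 and 7447 CPM in 12-cell embryo 2 and the 20-cell embryo. The gastrulae had 2977 and 3597 CPM, below both series at 12 cells and later. Its 6-10 cell values ran from 2604 to 8941 CPM (median 7180).

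Rows 551, 298, 1446 and 379 were present in every 1-3 cell embryo, at 352 to 2762 CPM, 727 to 1519 CPM, 665 to 1381 CPM and 547 to 984 CPM. In 8-cell embryo 1 they stood at 520, 1300, 260 and 433 CPM. In 12-cell embryo 1 and the 14-cell embryo they stood at 8017 and 9378 CPM for row 551, 8351 and 8656.5 CPM for row 298, 8351 and 10370 CPM for row 1446, and 7683 and 8927 CPM for row 379. In each of the 4 rows the 12-cell and 14-cell embryos were above all 1-3 cell embryos, and 8-cell embryo 1 lay within or below the 1-3 cell range.

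The 60 features were tested between embryos of the lower series that took no part in the choice. The filter on low counts and the spread behind each p came from all 20 embryos of both series. Those used for the choice were among them, so only the contrast was held out. The comparison sets 12-cell embryo 1 and the 14-cell embryo against the embryo labelled 8-cell embryo 1, with counts summed per embryo. Since that embryo was unlike the other 8-cell embryos, the comparison is one between these embryos and not between stages. By edgeR's quasi-likelihood test with Benjamini-Hochberg adjustment over 604 features, 40 of the 60 were higher at 12-14 cells at an adjusted p under 0.05, and 0 were lower. Over all features tested, 21.5% were called higher and 9.27% lower. All 60 passed the filter on low counts, and all 60 fitted changes were positive, with a median of 5.14 on the log2 scale. The median of all features tested was 1.46 with the TMM scaling and 1.92 with the DESeq2 size factors, and 58 of the 60, with all 40 called ones among them, lay above the former. In 58 of the 60 both later embryos lay above 8-cell embryo 1, where 55.2% of 534 rows did.

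The single 8-cell embryo of the lower series is assumed in this test to vary like the other embryos. The count of 40 was 25 without 12-cell embryo 1 and 30 without the 14-cell embryo. Other features fell between the same embryos, so a rise in CPM is a rise in share.

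Among the abundant members, the rise of row 504 was 7.28 (log2 scale, SE 1.33, adjusted p = 0.000771 by edgeR's quasi-likelihood test). The rise was 5.78 (SE 1.05) in row 823 and 4.65 (SE 0.80) in row 215, at an adjusted p of 0.000771 and 0.000630 in the same edgeR test. Rows 498, 1446, 379, 551, 689 and 298 were called as well, with rises of 5.83, 5.42, 4.52, 4.32, 3.80 and 2.97. All 9 of these rows had at least 2 counts in 8-cell embryo 1. Row 459 was the exception among the 10, at 1.28 (SE 0.68, adjusted p = 0.150 by edgeR), and its value in 8-cell embryo 1 was already above the 1-3 cell range.

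The largest fitted rises belonged to rows 380, 1277 and 882, at 10.23 (SE 2.095), 9.94 (SE 2.54) and 9.90 (SE 2.17) on the log2 scale. Their adjusted p-values by edgeR were 0.00117, 0.00497 and 0.00189. All 3 had 0 counts in 8-cell embryo 1, so the fitted size depends on the model's prior and is no measure of the fold. Against a floor of 3 counts in that embryo (260 CPM), they were at least 8.43-fold, 6.90-fold and 6.90-fold higher. In all, 22 of the 60 features had 0 counts in 8-cell embryo 1, and 17 of them were called. The 38 with a count had a median fold of 12.1 (1.15 to 133.95), and 23 of them were called. Most of the 38 had only 1 or 2 counts there, under the floor of 3, so their folds are imprecise. With the 22 set at the floor and the 38 at their own counts, the median over all 60 was 5.84-fold. At 4 of the 22, rows 480, 652, 1243 and 1496, the 12-14 cell level was itself at or under the floor, so a difference was not detectable at this depth.

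The 20 features that did not pass the threshold were of different kinds. Rows 459, 615 and 794 had 11439, 1993 and 1300 CPM in 8-cell embryo 1, and the level at 12-14 cells was 2.03, 3.05 and 3.64 times as high. Row 981 had 0 counts in 8-cell embryo 1, and its adjusted p by edgeR was 0.0526. The other 12 with a count there had 1 to 5 counts, with ratios from 1.15 in row 895 to 9.77 in row 206. Most of the features without a call were thus low in 8-cell embryo 1, and rows 459, 615 and 794 were well counted there.

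**Figure D4:**
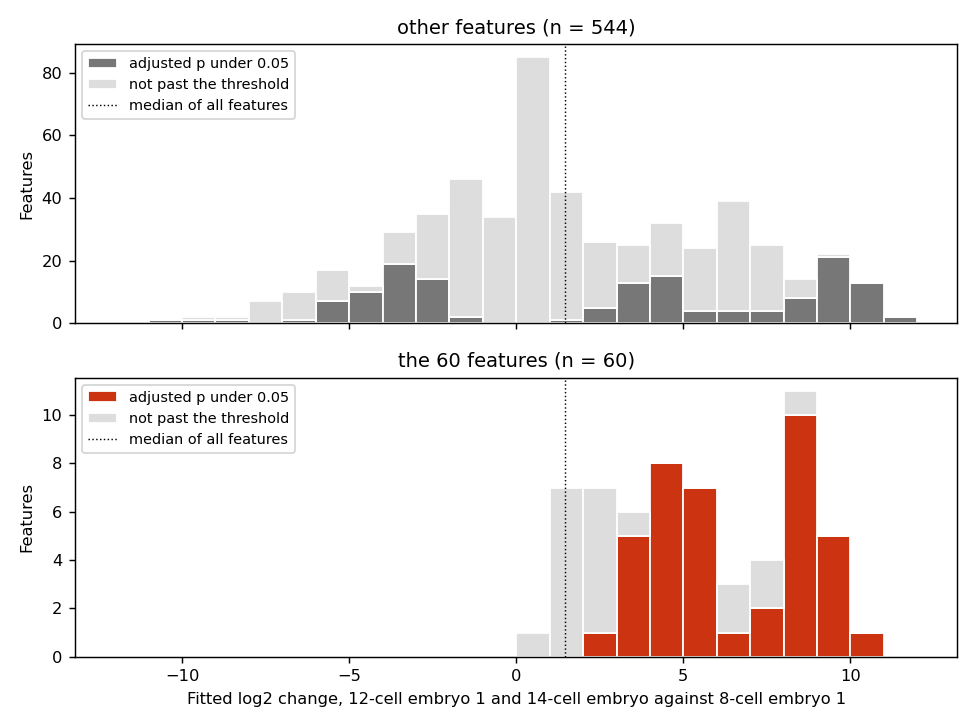
Number of features (vertical axes) by fitted log2 change of 12-cell embryo 1 and the 14-cell embryo against 8-cell embryo 1, for the other 544 features (top) and the 60 features (bottom). Dark bars are features with an adjusted p under 0.05 by edgeR, and the dotted line is the median of all features (1.46). All 60 features lie above 0, and the group of bars near 8 to 10 holds features with 0 counts in 8-cell embryo 1.

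At 12 cells and later, the 60 features were next compared between the series. The higher-series 12-cell embryo 2 and 20-cell embryo were set against the lower-series 12-cell embryo 1 and 14-cell embryo, all held out. The spread again came from the fit of all 20 embryos. None of the 60 passed the threshold by edgeR in either direction, and none passed by DESeq2. An unadjusted p under 0.05 in edgeR was found for 3 of the 60 and for 67 of all 604 features. Over all 604 features 0.0% were called higher and 0.166% lower. The median fitted change was 0.61 on the log2 scale for the 60 features and 0.62 for all features, and with the DESeq2 size factors these medians were 0.13 and 0.15. A p that misses the threshold with 2 embryos a side does not show that the series gave the same levels. Of the 3, rows 982 and 1244 differed by 2.36 (SE 0.70) and 2.42 (SE 0.72), with an adjusted p of 0.202 for each in edgeR's test.

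The levels of the 60 features ranked alike in the 2 embryos labelled 12-cell. On the log2(CPM + 100) scale the correlation across the 60 features was r = 0.905 (rho = 0.885), and 47 of the 60 were within 2-fold. For 12-cell embryo 1 and the 14-cell embryo r was 0.912, with 48 within 2-fold. For 8-cell embryo 1 and 12-cell embryo 1 r was 0.634, with 5 within 2-fold, and for 8-cell embryo 1 and the 3-cell embryo r was 0.834, with 25 within 2-fold. These correlations are across features, which are not independent replicates, and all embryos share the same spread of abundant and rare features.

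Within the higher series the 60 features had about the same level before and after 12 cells. The held-out 12-cell embryo 2 and 20-cell embryo had a median ratio of 0.982 to the 6-10 cell embryos, with a range of 0.481 to 1.68. The 431 rows with at least 200 CPM at 6-10 cells had a median of 0.957. The 6-10 cell embryos entered the choice, so these ratios are a description. By the mean CPM over the embryos of each group, 18 of the 60 features were highest at 6-10 cells, 25 at 12-20 cells and 17 in the gastrulae. These means cover 8, 2 and 2 embryos, and the same counts over all features were not computed. The 6-10 cell and gastrula levels also entered the choice, so these counts do not place a peak of the set.

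Between the 9-10 cell and the 6-8 cell embryos of the higher series, row 504 was the one member that passed the threshold. The summed counts of these 8 embryos entered the choice of the 60 features, though the contrast between them did not. Its level was 11144 CPM in the 6-cell embryo, 12853 CPM in the 7-cell embryo, and 9771, 5208, 33554 and 12715 CPM in 8-cell embryos 2 to 5, a mean of 14208 ± 9883 CPM (SD, n = 6). In the 9-cell and 10-cell embryos it was 40957 and 51497 CPM, a mean of 46227 ± 7452 CPM (SD, n = 2). The 6-8 cell and 9-10 cell values did not overlap, and 8-cell embryo 4 came closest to the 9-10 cell embryos. The rise was 1.90 on the log2 scale (SE 0.51, adjusted p = 0.0334 by edgeR's quasi-likelihood test).

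Over all 604 features 1.16% were called higher and 2.65% lower at 9-10 cells, so 1 of 60 is near that background. A further 10 of the 60 had an unadjusted p under 0.05 in edgeR's test. With row 504 included, this share of the 60 was close to that of all 604 features, so it too is near background. Among the 10 were rows 1446, 551 and 542, with rises of 1.30, 1.07 and 2.05. Their adjusted p-values were 0.116, 0.253 and 0.104 in edgeR's test. The call for row 504 rested on the full set of embryos. It passed the threshold without 8-cell embryo 4 and was lost when any of the other 7 embryos was left out or when libraries under 1000 counts were, with a rise of 1.57 to 1.91. Row 504 continued to differ between embryos after this stage, at 12042 CPM with 12 cells (embryo 2) and 38031 CPM with 20 cells.

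The 20-cell embryo and 12-cell embryo 2 are 1 embryo each, so their differences are given with no test. Of the 60 features, 11 were at least 2-fold higher in the 20-cell embryo, where 32.4% of 552 rows were. A further 7 were at least 2-fold lower, where 18.5% of the rows were. The largest ratio was that of row 998, 6592 against 873 CPM or 7.55-fold, followed by row 480 (5.47-fold, from 9 counts in 12-cell embryo 2) and row 1496 (4.32-fold). Without the deepest library of the 20-cell embryo the ratio of row 998 was 5.03 and that of row 480, then the largest, was 6.17, with 10 members at least 2-fold higher and 6 lower. The lowest were those of rows 824, 213 and 379, at 0.245, 0.280 and 0.284. The median ratio was 1.07 for the 60 features and 1.28 for all rows compared.

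The late and early gastrulae differed less in these features. Rows 480, 1069, 1399 and 1538 were at least 2-fold higher in the late gastrula, 4 of 60 where 31.5% of 639 rows were. Rows 719 and 794 were at least 2-fold lower, 2 of 60 where 8.92% of the rows were. The median ratio was 0.994 for the 60 features and 1.28 for all rows compared. A gastrula level within 3-fold of the 6-10 cell level was a condition of the choice.

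At the earliest stages, 2-3 cells against 1 cell, none of the 60 features passed the threshold by edgeR in either direction. The summed counts of these 5 embryos entered the choice, which kept features that were low in them (median of 7 counts in all). The contrast within them did not enter the choice. Over all 604 features 0.0% were called higher and 0.0% lower. DESeq2 called 1 of the 60 lower, the only call among 1369 features. In edgeR 8 of the 60 had an unadjusted p under 0.05, as did 36 of all 604 features. Row 689 differed by -1.89 on the log2 scale (SE 0.51, adjusted p = 0.453 by edgeR) and row 459 by 1.27 (SE 0.54, adjusted p = 0.778). The 3-cell embryo had the lowest row 551 level and the highest row 459 level of the 5 embryos. The fitted change was positive in 21 of the 60 features, with a median of -0.46 that became 0.25 without 1-cell embryo 1.

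At these stages the labels name the anterior blastomere AB and the posterior blastomere P1, the founders of the somatic and germline-bearing branches in *Caenorhabditis elegans*. The 60 features held 2.29% of the counts of AB and 3.71% of P1 in the named 2-cell pair, and 1.88% of AB (AB1 and AB2 summed) and 2.30% of P1 in the 3-cell embryo. P1 was above AB in both embryos. Of the 60 features, 5 had enough counts to be tested (rows 215, 298, 459, 615 and 823). None was called by edgeR or DESeq2, and none had an unadjusted p under 0.05, with 0.0% of all features tested called. Row 298 gave the largest of the 5 differences, -0.78 on the log2 scale (SE 0.69).

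In *C. elegans*, P4 is the primordial germ cell precursor, a lineage in which transcription is held off longer than in the soma. In the present data a library named DP4 belongs to 12-cell embryo 1 and one named P4 to the 14-cell embryo. The labels do not say what DP4 stands for, so whether it is the P4 cell is not known. The DP4 library had 1176 counts, of which the 60 features held 15.1% (13.1% to 17.2%), and the other libraries of its embryo together had 21.7% (20.8% to 22.6%). The P4 library had 27 counts outside the 6 dominant rows, 3 of them in the 60 features. The comparison thus rests almost wholly on the DP4 library.

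Of the 60 features, 44 had a lower CPM in DP4 than in the rest of its embryo, as did 346 of 550 other features with a count there (62.9%). Of the 44, 22 had 0 counts in DP4, and 18 of these had under 2 counts expected. Among the 14 members with at least 5 counts expected in DP4, 13 were lower, as were 32 of 42 such other features (76.2%). Row 823 was the exception among the members, with 13 counts against 10.2 expected. Rows 551, 744 and 1092 had 0 counts in DP4, where 10.8, 6.48 and 5.12 were expected. Row 504 had 24 counts against 28.9 expected and row 459 had 17 against 27.6. The floor of 3 counts in DP4 is 2551 CPM, so most of the other members could not be assessed in this cell.

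In the test of P4 or DP4 against the rest, 19 of the 60 features passed the filter on low counts, and rows 551 and 744 were called lower. Their fitted changes were -8.53 (SE 2.56) and -7.86 (SE 2.54), both against 0 counts so that their sizes depend on the model, and edgeR's test gave an adjusted p of 0.0332 and 0.0435. Over 98 features tested 6.12% were called. Each named cell is paired with the rest of its own embryo, and with the embryo as a block 0 of the 19 were called. DESeq2, edgeR without the filter and edgeR with the 6 dominant rows kept also called 0. With the DESeq2 size factors, edgeR called 3 of the 19 lower, among 4 lower of the 98 features tested.

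Libraries of 1 embryo differed in their share of the 60 features, and in several embryos 1 library lay below the rest. In the 10-cell embryo the 10 libraries lay between 24.7% and 27.3%. In the 7-cell embryo 1 library of 12719 counts gave 12.5%, and the other 6 gave 20.3% to 25.2%. In the 9-cell embryo 1 library of 4006 counts gave 16.1%, and the other 8 gave 24.2% to 28.0%. In 12-cell embryo 2 a library of 4220 counts gave 13.2%, and the other 9 gave 20.4% to 25.2%.

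A library of 19700 counts in 8-cell embryo 2 gave 7.11%, the lowest share of any library with at least 200 counts outside the 1-3 cell embryos and 8-cell embryo 1, and the other 5 gave 13.9% to 18.7%. None of these 4 libraries carries a cell name. The retained rows were not uniform in them. In the 7-cell library they held 25.5% against 32.0% to 37.4% in the others, and in the 9-cell library 24.4% against 32.9% to 41.8%. In the 12-cell embryo 2 library they held 45.7% against 29.3% to 40.5%, and in the 8-cell embryo 2 library 39.3% against 27.9% to 33.5%. The first 2 libraries were thus low in both sets of rows, and the other 2 were low in the 60 features and high in the retained rows. In the 12-cell embryo 2 library, row 504 stood at 1422 CPM (6 counts), where the other libraries of that embryo had 7165 to 19064 CPM.

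Over the libraries of the 20-cell embryo, rows 504, 759 and 998 were the most uneven of the 60 features, and for rows 504 and 998 this rested largely on 1 library. The level of row 504 ran from 12562 to 72614 CPM over 15 libraries with at least 500 counts (median 45534), with a chi-square against equal shares of 91.6 per degree of freedom. Rows 759 and 998 followed, at 25.0 and 18.5. The deepest library of the embryo (42908 counts, the next 10705), whose title carries the digit 3, held the lowest value of row 504. Without it the chi-square per degree of freedom was 12.9 in row 504, with 25157 to 72614 CPM over 14 libraries, 24.7 in row 759 and 3.02 in row 998, so that row 759 came first. Row 759 rested in turn on a library of 10705 counts, the one whose removal lowered its value most, without which it was 5.69. Row 759 ran from 0 to 10743 CPM with a median of 1758, and row 998 from 1773 to 11536 CPM with a median of 4717. Rows 1277, 981 and 1244 had the smallest values, at 0.819, 0.905 and 0.933, close to the value of 1 that counting error alone would give. Without the deepest library these were 0.546, 0.816 and 0.935. For the 60 features the median was 2.73 (2.02 without the deepest library) and for all features of that embryo 2.50.

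The same features were also followed over the libraries of other embryos. In the 7-cell embryo the value for row 504 was 280.6, with 1 library at 43421 CPM where the median of the 7 was 9984 CPM. Without that library of 18332 counts the value was 51.4. In the 10-cell embryo, where its level was highest, it was 11.3, with 44280 to 68190 CPM over the 10 libraries, and 7.12 without 1 of them. Row 759 gave 15.3 in the 9-cell, 15.4 in the 10-cell and 13.8 in the late gastrula libraries, and 0.824 in 8-cell embryo 4. Without 1 library each these values were 0.936, 7.90, 3.93 and 0.110. Row 981 gave 1.09 in the 9-cell embryo, 1.06 in the 10-cell embryo and 1.46 in the late gastrula, and 0.717, 0.739 and 1.27 without 1 library each. Each library left out here was the one whose removal lowered the value most. A fall thus follows in part from that choice, also where counting error alone was at work. Over 16 embryos the median chi-square per degree of freedom of the members had a median of 2.096. Deeper libraries and more abundant features give larger values for the same unevenness. Values of different embryos, or of features with different counts, are therefore not on one scale.

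**Figure D5:**
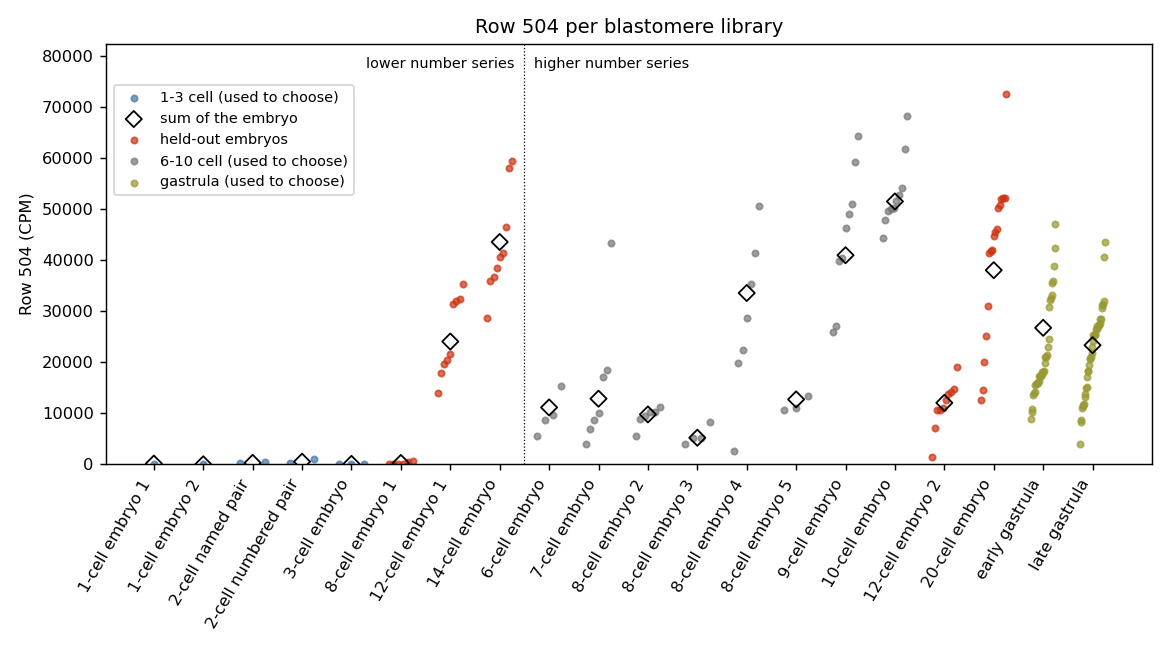
Row 504 (CPM, vertical axis) in each blastomere library with at least 200 counts, by embryo, with open diamonds for the sum of the embryo and a dotted line between the lower and the higher sample numbers. The level is near 0 up to 8-cell embryo 1, and the libraries of the 20-cell embryo spread from 12562 to 72614 CPM. In the 7-cell embryo 1 library lies at 43421 CPM, well above the other 6.

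The 60 features were spread over the table. Of them, 47 had no other member in a neighbouring row, and 13 lay next to another member, in 6 runs. Whether neighbouring rows are neighbouring genes or related genes is not stated in the sources used here.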

How the data were processed

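The authors deposited raw whole-number counts, 1 per feature and blastomere library. The submitters' processing notes list CASAVA 1.8, Bowtie2 2.1.0 and HTSeq 0.5.4p3 but not what each did. Neither the genome build nor the kind of count (reads or molecular identifiers) is given in the sources used here. The table used has 189 columns and 1572 complete rows, and 1 incomplete row was left out, so totals are not library depths. Columns were assigned to samples through the sample number.

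The 60 features, the 6 rows left out, the comparisons and the rule for named features were set with earlier results of these data known. Named are the 10 most abundant members of the held-out libraries and the 3 largest rises and falls per test. Also named are the 3 rows on each side of the 4-fold limit, and the 3 members with the largest and the 3 with the smallest chi-square in the 20-cell embryo. Other features named were chosen after their values were seen.

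Counts were summed per embryo, and edgeR 4.0.16 (R 4.3.3) fitted 20 embryos in 8 groups of stage and series with 12 residual degrees of freedom, TMM scaling and filterByExpr, with Benjamini-Hochberg adjustment over all features tested. Named cells were tested in separate fits of 4 sums. DESeq2 1.42.0 was an alternative. The script was tested on simulated data. Separate cultures are not stated for the embryos, and p-values therefore reflect only how far these embryos differed among themselves. AB and P1, and P4 or DP4 and the rest, are parts of 1 embryo each time. Their deviations correlated at 0.472 and 0.173 within embryos, and fits with the embryo as a block were run beside the main ones. Expected numbers of features at 1000 counts were computed from the counts without resampling.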

Additional observations from a re-analysis of the deposited data

Results flagged for a closer look

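Among the 9 embryos of 6-10 cells, 8-cell embryo 1 lay far from the other 8 in the share of counts in the 60 features (2.46%, the others 15.1% to 25.4%). It was also far below them in row 215 (867 CPM, the others 10872 to 20208), row 379 (433 CPM, the others 4349 to 7959) and row 823 (173.3 CPM, the others 7840 to 14423). It is also the one 6-10 cell embryo of the lower series, so embryo and series cannot be told apart. Of 33 sets of embryos examined, 4 had such an outlying embryo. The rule flags about 1 in 20 sets by chance, but here the 8 other embryos entered the choice of the features, and the 4 sets show 1 embryo in members and in their sum, so the number of flags gives no support.

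Single libraries stood apart from the rest of their embryo in the share of the 60 features, in 4 of 11 embryos examined. These were the DP4 library of 12-cell embryo 1 (15.1%, the next lowest 20.7%), a library of the 7-cell embryo (12.51%, next 20.3%), one of the 9-cell embryo (16.1%, next 24.2%) and one of 12-cell embryo 2 (13.2%, next 20.4%). The share of the 6 dominant rows in each lay within the range of the others of its embryo. So did the depth, except in the 9-cell library, whose 4006 counts were the fewest of its embryo. The part of depth in the result was not tested.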

How the results depend on the processing

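Without 1 embryo at a time, the count of the 60 features called higher at 12-14 cells against 8-cell embryo 1 ranged from 25 to 30. Other alternatives gave 31 to 47. The median ratio of 12-14 cells to 1-3 cells was 7.70 with each library weighted equally, 3.50 with the 6 dominant rows kept, and 8.84 to 9.35 without 1 held-out embryo. That of 12-20 cells to 6-10 cells was 1.02 with equal weights and 0.958 to 0.988 without 1 embryo. For 9-10 against 6-8 cells, 2 features were called by DESeq2 (1 higher and 1 lower), 3 without the filter, 0 in libraries of at least 1000 counts, and 0 to 2 without 1 embryo. For 2-3 cells against 1 cell, DESeq2 called 1 and leaving out 1 embryo gave 0 to 1, the 1 without the named 2-cell pair. For P4 or DP4 against the rest, DESeq2, no filter, the dominant rows kept and the replicate block each called 0. There edgeR with the DESeq2 size factors called 3. The block changed no call for AB against P1, which stayed at 0. The median chi-square per degree of freedom per embryo was 1.95 without libraries whose titles carry a digit before the cell number, an alternative chosen after seeing the data. The fitted change against 8-cell embryo 1 was positive in all 60 features, in 58 without 12-cell embryo 1 and in 59 in libraries of at least 1000 counts. The median change of 2-3 cells against 1 cell was -0.46, and 0.25 without 1-cell embryo 1. Unevenness in the 20-cell embryo without its deepest library was also chosen after seeing the data, and stands beside those values. Counts in 8-cell embryo 1 limit folds below its floor of 260 CPM. Beyond what fewer embryos, libraries or features tested bring by construction, the cause was not tested.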
